A study of Mus musculus with 26 samples.

Results

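The RNA of 9 complement genes was followed in the testis and proximal epididymis of mice of the ArKI knock-in line and of wild-type (WT) mice. The genes were chosen by name: *C1qa*, *C1qb*, *C1qc*, *C2*, *C3*, *C4b*, *Cfb*, *Cfd* and *Cd55*, 9 of the 23337 genes with a deposited read count. The ArKI change is a germline allele, so it is present in every cell of the mouse and not in a chosen tissue. The allele came from targeted hybrid embryonic stem cells, and ArKI and WT mice alike were of the strain labelled C57Bl/6N; 129 hybrid and 3 months old. Initial segment (IS) and caput epididymidis were both taken from 5 ArKI and 5 WT mice by the methods of the study, and testis from 3 ArKI and 3 WT mice, giving 26 samples. The 20 epididymal samples are thus segments of the same animals, but nothing states that a sample number marks the same mouse in IS and caput, and numbers of mice below name samples within a tissue. None of the mice received a treatment.

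Complement is a cascade of plasma and tissue proteins that marks cells and debris for removal. The classical pathway starts when C1q, built from the chains encoded by *C1qa*, *C1qb* and *C1qc*, binds an antibody or a dying cell, after which C4 and *C2* are cleaved and together cleave C3, the protein on which all pathways meet. The alternative pathway cleaves C3 with factor B (*Cfb*), itself activated by factor D (*Cfd*), while CD55 on the cell surface takes the C3-cleaving complexes apart. C1q is made mainly by tissue macrophages, and in the male tract sperm carry antigens that are foreign to the immune system and are covered by complement regulators.

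The samples held between 4125768 and 21376604 counts, with 5829074 to 9770625 in the IS, 4125768 to 11913469 in the caput and 14077013 to 21376604 in the testis. Levels are given as CPM, the count of a gene as a rate of its TMM-scaled library size (parts in 1e6). Scaling was done within the 20 epididymal samples and, separately, within the 6 testis samples. The testis samples were sequenced in batch 1 and the epididymal samples in batch 2 according to the labels, so tissue and batch cannot be told apart and no test was made between testis and epididymis. All 4 IS markers (*Rnase10*, *Cst8*, *Cst11* and *Ros1*) were higher in the WT IS than in the WT caput, and *Lcn5* was lower, at 83.5 CPM against 15357 CPM. *Lcn8*, *Lcn9* and *Crisp1*, which had been listed as caput markers, were nevertheless higher in the WT IS. The sum of the 4 IS markers varied between caput samples, from 852 to 3663 CPM in WT and from 1018 to 2793 CPM in ArKI. All 9 testis markers were detected in the testis.

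A pair of caput libraries stood apart from the rest. The caput sample of ArKI mouse 2 had the lowest depth of all (4125768 counts), and its fibroblast markers summed to 2472 CPM against 866 to 1416 CPM in the other 9 caput samples. The caput sample of WT mouse 5 held 97 counts of *Cfd*, whereas the other 9 caput samples held 0 to 20. Caput genotype changes of *C4b*, *C3*, the C1q genes and *Cfb* are given with and without ArKI mouse 2. That of *Cfd* is given with and without WT mouse 5. The medians and the correlations over the 20 epididymal samples include both samples.

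All 9 genes are protein coding, and 4 of them lie on chromosome 17. In the GRCm38 (mm10) annotation, *C4b* (17:34728380-34743882), *Cfb* (17:34856374-34862518) and *C2* (17:34862604-34898265) sit in one stretch of the minus strand, and only 85 bases separate *Cfb* from *C2*. *C3* lies farther along the same strand (17:57203970-57228136). The C1q genes form a cluster of 18675 bases on the minus strand of chromosome 4, in the order *C1qb* (4:136880129-136886187), *C1qc* (4:136889804-136893065) and *C1qa* (4:136895917-136898803). *Cd55* is on chromosome 1 (1:130439027-130462744, minus strand) and *Cfd* on chromosome 10 (10:79890853-79892655, plus strand).

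The 250 bases before the RefSeq start (GRCm38.p6) were available for 5 of the 9 genes, and 3 of these are shown because the C1q chains moved together across samples and *C3* was the only gene called higher in ArKI in all 3 tissues. Entries for *C1qa*, *C2*, *C4b* and *Cfb* were not used here. The RefSeq start of *C1qc* lies inside the gene as placed above, so its stretch partly overlaps that gene. Positions are counted from the RefSeq start. Bases are written 5′ to 3′ on the minus strand, each ending at the base before the start, and capitals mark matches on either strand to the searched motifs.
*C1qb* promoter, chr4:136886201-136886450: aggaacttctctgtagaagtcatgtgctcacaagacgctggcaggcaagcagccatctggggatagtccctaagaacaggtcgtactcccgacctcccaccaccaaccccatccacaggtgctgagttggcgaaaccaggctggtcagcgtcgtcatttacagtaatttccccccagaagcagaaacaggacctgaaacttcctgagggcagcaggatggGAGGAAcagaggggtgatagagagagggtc
*C1qc* promoter, chr4:136892915-136893164: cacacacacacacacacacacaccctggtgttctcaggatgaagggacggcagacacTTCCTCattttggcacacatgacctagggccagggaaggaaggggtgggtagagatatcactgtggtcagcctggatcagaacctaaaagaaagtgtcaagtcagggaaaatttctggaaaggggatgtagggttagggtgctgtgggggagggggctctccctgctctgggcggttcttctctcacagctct
*C3* promoter, chr17:57228137-57228386: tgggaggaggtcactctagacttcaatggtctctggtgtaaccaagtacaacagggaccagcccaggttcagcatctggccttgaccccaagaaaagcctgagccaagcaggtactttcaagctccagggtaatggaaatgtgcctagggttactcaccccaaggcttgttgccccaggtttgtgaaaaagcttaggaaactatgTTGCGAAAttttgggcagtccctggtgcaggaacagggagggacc
Counting back from the start, *C1qb* held the core GAGGAA of PU.1, a factor of macrophages, at -30 to -25. *C1qc* held the same letters on the opposite strand, written here as TTCCTC, at -193 to -188. *C3* held the C/EBP motif TTGCNNAA, read by a family of acute-phase factors, at -45 to -38. These letters are common: GAGGAA or its reverse was found in 23.3% of 32851 mouse promoter entries of this length and TTGCNNAA in 9.56%. No match was found in any of the 3 stretches to the STAT motif TTCNNNGAA (7.02% of entries) or to the TATA box TATAAA (12.4%). The same held for the interferon element (GAAA, any 2 bases, GAAA, in 2.98%) and the NF-kappa B motif (GGG, any 2 bases, TTTCC, in 1.41%).

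Per kilobase of exon, *C1qa*, *C1qb* and *C3* were the most abundant of the 9 genes in the WT IS (55.5 ± 9.07, 42.0 ± 4.40 and 31.2 ± 1.75 CPM per kb, mean ± SD, n = 5), followed by *C1qc* at 26.5 ± 4.97. *Cfb* (8.63 ± 0.73), *C2* (3.91 ± 0.45) and *C4b* (3.51 ± 0.58) were lower, and *Cd55* (0.83 ± 0.34) and *Cfd* (0.78 ± 0.76) were the lowest. In the WT caput *C3* stood first at 29.996 ± 5.18 CPM per kb and *C1qa*, at 27.2 ± 5.48, was within its spread. In the WT testis *C1qb* (9.41 ± 1.33), *C1qa* (7.48 ± 1.34), *Cd55* (6.83 ± 0.16), *C2* (6.33 ± 1.29) and *C4b* (4.997 ± 0.20) had neighbouring levels, whereas *Cfb* (0.56 ± 0.07) and *Cfd* (0.22 ± 0.08) were scarce. Each of the 9 genes was detected in every tissue, but *Cfd* was under the low-count filter in all of them, and 8 of 9 could be tested across all genes.

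**Figure D1:**
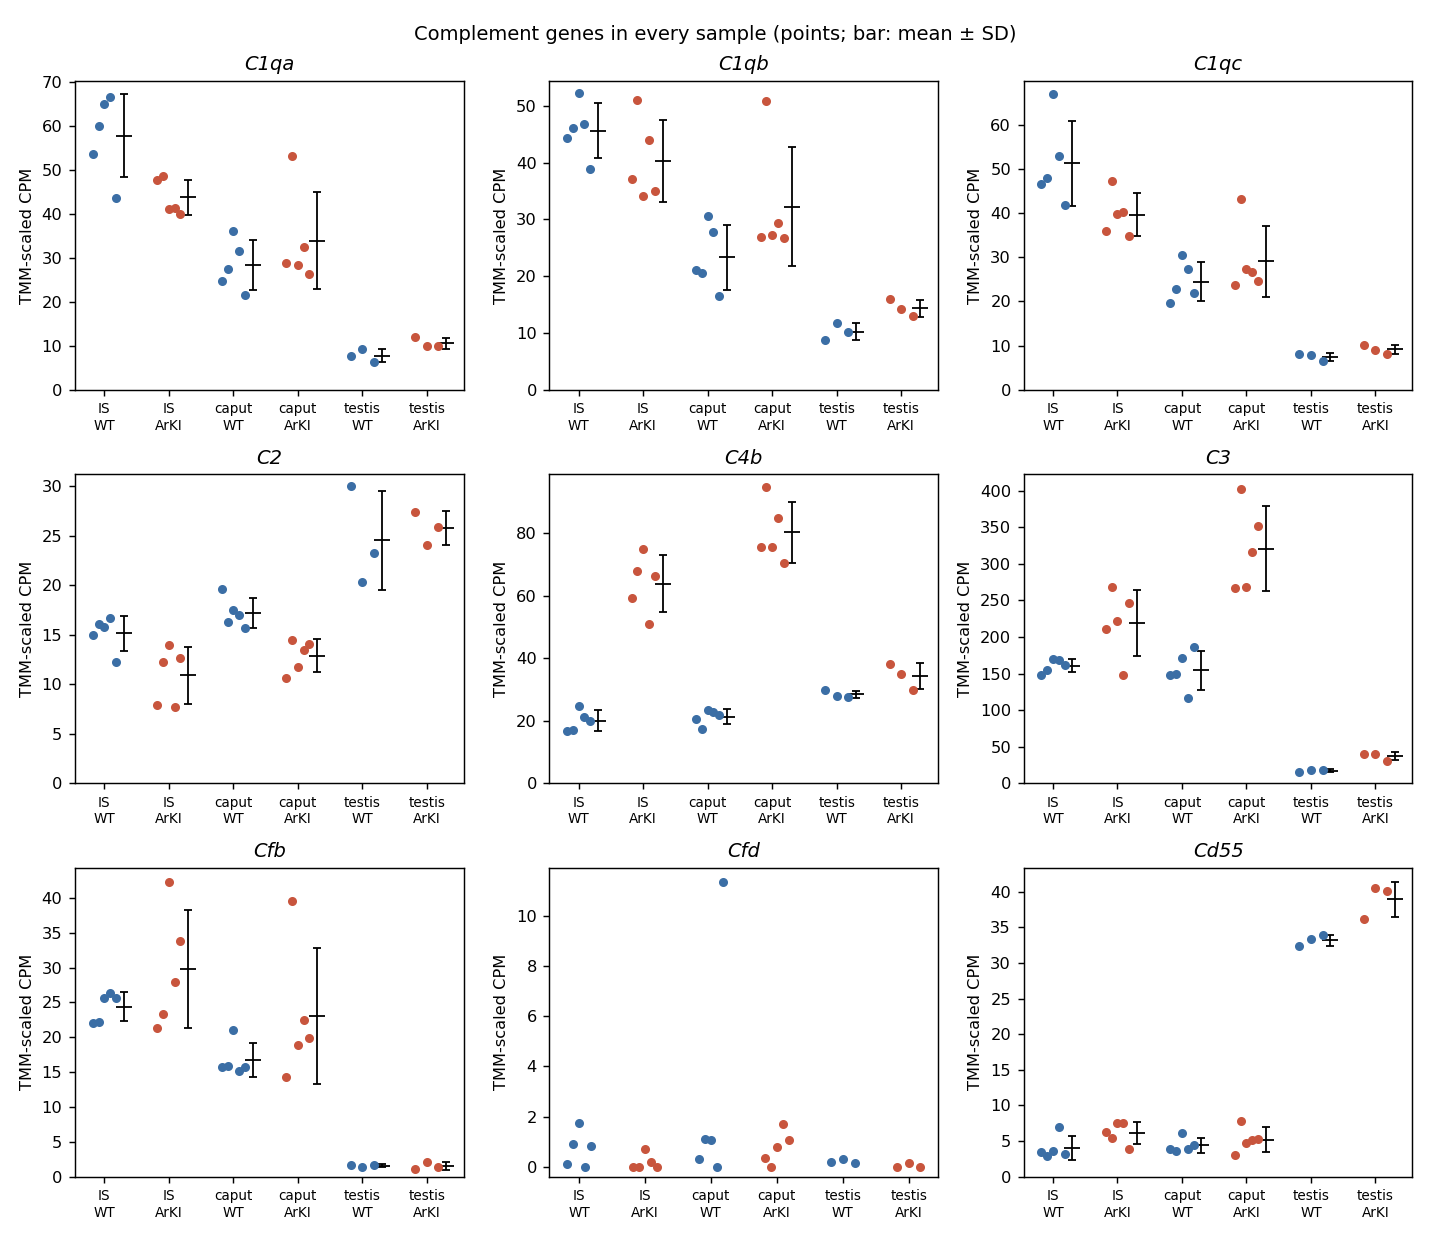
TMM-scaled CPM (y axis) of each complement gene in every sample, by tissue and genotype (x axis), with WT in blue and ArKI in red. Bars give the mean ± SD (not drawn for *Cfd*). *C4b* separated ArKI from WT completely in the IS (51.0 to 74.9 against 16.8 to 24.8 CPM) and caput. The caput sample of ArKI mouse 2 was the highest of its group for every gene but *Cfd*, also for *C2*, which fell in the ArKI caput.

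The first question was which of these genes differed between ArKI and WT in each tissue. In the IS, *C4b* and *C3* rose and *C1qa* and *C2* fell. In the caput, *C4b* and *C3* rose and *C2* fell. In the testis, *C3* and *C1qb* rose. Genes were called at an adjusted p below 0.05 in edgeR's quasi-likelihood test, adjusted by Benjamini-Hochberg over all genes tested in that tissue. With the thresholds of the study (an adjusted p below 0.01, or 0.2 in the testis, and a fold above 2), *C4b* passed in the IS (1 of 8, against 4.04% of all genes), *C4b* and *C3* in the caput (2 of 8, against 4.98%) and *C3* in the testis (1 of 8, against 0.833%). In the IS, 4 of 8 genes were called, where 29.6% of all genes tested were called. The IS count was 2 without ArKI mouse 1, WT mouse 1 or WT mouse 2. In the caput it was 3 of 8 against 27.7%, and in the testis 2 of 8 against 1.96%, with 1 of 8 left without WT mouse 1 or 3 or ArKI mouse 1 or 2. The median log2 fold change of the 8 genes was 0.05 in the IS, 0.31 in the caput and 0.27 in the testis. Since these are extracts of whole tissue, fewer cells of a type and less RNA per cell cannot be told apart, and nothing states that the mice of a group came from separate litters.

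**Figure D2:**
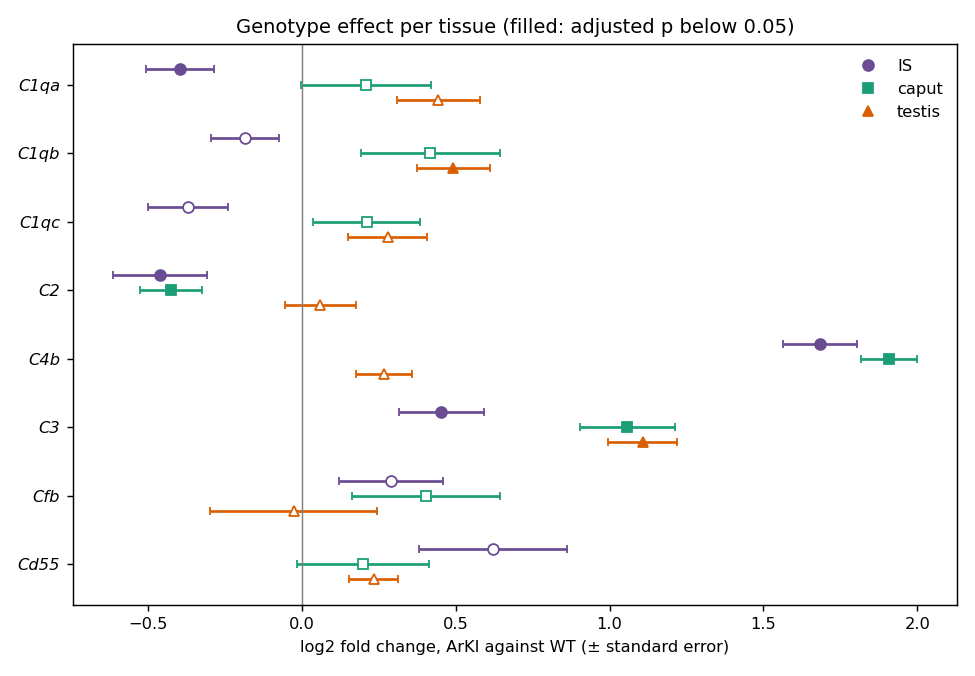
Log2 fold change (x axis, ± standard error) of ArKI against WT for each of the 8 tested genes (y axis), with the IS as circles, the caput as squares and the testis as triangles. Filled symbols have an adjusted p below 0.05. *C4b* lay at 1.68 in the IS and 1.91 in the caput but at 0.27 in the testis, and *C3* lay at 0.45, 1.06 and 1.11.

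*C4b*, the circulating C4 that is cleaved by *C1s* and becomes part of the C3-cleaving complex, changed more than any other of the 8 genes in the IS and caput. In the IS it was at 16.8, 17.1, 24.8, 21.3 and 19.9 CPM in WT mice 1 to 5. In the ArKI mice it was at 59.2, 68.0, 74.9, 51.0 and 66.3 CPM. The lowest ArKI sample was above every WT sample, and the groups differed 3.21-fold (log2 fold change 1.68 ± 0.12 SE, edgeR adjusted p = 2.2e-07). In the caput the WT samples held 20.6, 17.4, 23.6, 22.9 and 21.98 CPM. The ArKI samples held 75.4, 94.8, 75.6, 84.8 and 70.5 CPM, again with no overlap. The difference was 3.75-fold (log2 fold change 1.91 ± 0.09, edgeR adjusted p = 8.7e-10), and 1.86 on the log2 scale without the caput sample of ArKI mouse 2. Groups did not overlap for 20% of all genes tested in the IS and 20.2% in the caput.

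In the testis *C4b* was at 29.7, 28.1 and 27.6 CPM in WT and at 38.1, 35.0 and 29.8 CPM in ArKI. These groups also did not overlap, as was the case for 17.8% of genes tested there, but the difference of 0.27 ± 0.09 on the log2 scale was not called (edgeR adjusted p = 0.17). It passed when ArKI mouse 3 was left out (0.36, edgeR adjusted p = 0.040). WT IS and WT caput had like levels of *C4b*, at 19.99 ± 3.30 and 21.3 ± 2.43 CPM (n = 5 each), and the log2 difference of -0.09 ± 0.13 was not called (edgeR adjusted p = 0.52). The near-identical copy *C4a*, whose reads may be split unevenly from those of *C4b*, took between 0.57% and 12.3% of the C4 reads of a sample. With both copies summed, which was chosen after seeing the data, the log2 fold change was 1.65 in the IS and 1.84 in the caput.

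*C3*, the central component, rose in all 3 tissues, although the call in the IS was unstable. The study also lists *C3* among genes it chose on these samples, so its direction is not independent evidence. In the caput *C3* was at 148, 149, 172, 116 and 186 CPM in WT mice 1 to 5. The ArKI mice had 267, 403, 268, 316 and 352 CPM. Every ArKI sample was above every WT sample, and the fold was 2.08 (log2 fold change 1.06 ± 0.15, edgeR adjusted p = 0.00070). Without the caput sample of ArKI mouse 2 the log2 fold change was 0.97 (edgeR adjusted p = 0.0014). In the testis, where *C3* was lower, the WT samples held 14.99, 18.7 and 17.6 CPM and the ArKI samples 40.3, 39.6 and 30.3 CPM. The groups did not overlap, and the difference was 2.16-fold (log2 fold change 1.11 ± 0.11, edgeR adjusted p = 2.2e-06).

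In the IS *C3* was at 149, 154, 170, 168 and 162 CPM in WT and at 211, 269, 223, 149 and 247 CPM in ArKI. ArKI mouse 4 was within the WT range and the other 4 ArKI mice were above it. The log2 fold change was 0.45 ± 0.14 (edgeR adjusted p = 0.037). Without ArKI mouse 4 it was 0.56 (edgeR adjusted p = 5.7e-06). Leaving out any other of the 10 IS samples moved the edgeR adjusted p to between 0.061 and 0.081, past the threshold. With all samples kept, the call was also lost with no filter beyond 1 count, with limma-voom and with the replicate block (adjusted p up to 0.10). The change in the caput exceeded that in the IS by 0.60 ± 0.21 on the log2 scale, a difference that was not called (edgeR adjusted p = 0.070, unadjusted p = 0.012) but passed without IS ArKI mouse 2 (0.67, edgeR adjusted p = 0.043) and without caput WT mouse 5 (0.67, edgeR adjusted p = 0.048). Between WT IS and WT caput *C3* differed by 0.06 ± 0.15 (edgeR adjusted p = 0.75).

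*C2*, the protease that pairs with *C4b*, fell in both epididymal segments while *C4b* rose. In the caput *C2* was at 19.6, 16.2, 17.5, 16.9 and 15.7 CPM in WT and at 10.6, 14.5, 11.7, 13.5 and 14.1 CPM in ArKI. No ArKI sample reached the lowest WT sample, and the log2 fold change was -0.42 ± 0.10 (edgeR adjusted p = 0.0044). In the IS the WT samples held 14.9, 16.1, 15.8, 16.7 and 12.2 CPM and the ArKI samples 7.91, 12.2, 14.0, 7.67 and 12.6 CPM. ArKI mice 1 and 4 were lowest, the groups overlapped, and the log2 fold change was -0.46 ± 0.15 (edgeR adjusted p = 0.030). This call was lost on leaving out ArKI mouse 1 or 4 or WT mouse 1, 2, 3 or 4, with log2 fold changes from -0.56 to -0.36 over all 10 omissions. It was also lost with library size only. In the testis *C2* was at 30.04, 20.3 and 23.2 CPM in WT and 27.4, 24.0 and 25.9 CPM in ArKI, a difference of 0.06 ± 0.11 that was not called (edgeR adjusted p = 0.87). *C2* lies upstream of the neighbouring *Cfb* on the same strand, so reads that run past the end of *C2* could be counted with *Cfb*.

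The chains of C1q moved together across samples. *C1qa* made up 27.8% to 40.1% of the summed C1q CPM of a sample, *C1qb* 27.6% to 44.1% and *C1qc* 26.3% to 36.5%. Across the 20 epididymal samples, *C1qc* was the gene most similar to *C1qa* among 14030 genes (Pearson r = 0.961 of log2 values), and *Laptm5* and *C1qb* followed (r = 0.941 for each). *Sirpa*, a receptor of myeloid cells, was most similar to *C1qc* (r = 0.967), and *Laptm5* to *C1qb* (r = 0.943). With the group means removed, the most similar genes were *Des*, which encodes the muscle filament desmin, for *C1qa* (r = 0.898), *AF251705* for *C1qb* (r = 0.908) and *Tyrobp*, an adaptor of myeloid receptors, for *C1qc* (r = 0.910). These values share libraries and tissue composition and are given as a description.

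C1q was highest in the IS. *C1qa* was at 57.8 ± 9.43 CPM in the WT IS and 28.3 ± 5.70 CPM in the WT caput (n = 5 each), and no sample of one overlapped the other, as was the case for 56.6% of all genes. The log2 difference was 1.03 ± 0.17 for *C1qa* (edgeR adjusted p = 3.4e-05), 0.97 ± 0.18 for *C1qb* (edgeR adjusted p = 0.00013) and 1.07 ± 0.16 for *C1qc* (edgeR adjusted p = 7.6e-06). Together with *Cfb* these made 4 of 8 genes higher in the WT IS and none lower, where 69.4% of all genes tested were called, 35.0% higher and 34.4% lower in the IS. With the thresholds of the study 2 of 8, *C1qa* and *C1qc*, were left, against 21.6% of all genes. In the WT testis *C1qa* was at 7.78 ± 1.39, *C1qb* at 10.2 ± 1.44 and *C1qc* at 7.496 ± 0.88 CPM (n = 3).

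In the ArKI IS, *C1qa* fell. It was at 53.5, 60.0, 65.0, 66.7 and 43.6 CPM in WT and at 47.8, 48.6, 41.2, 41.3 and 39.9 CPM in ArKI. WT mouse 5 was within the ArKI range, and the other 4 WT mice were above it. The log2 fold change was -0.39 ± 0.11 (edgeR adjusted p = 0.017), and the call held on leaving out each of the 10 samples (edgeR adjusted p up to 0.049). When all 20 epididymal samples were fitted together it was lost (edgeR adjusted p = 0.086). *C1qc* differed by -0.37 ± 0.13 and missed the threshold (edgeR adjusted p = 0.0503), and *C1qb* differed by -0.18 ± 0.11 (edgeR adjusted p = 0.24). *C1qc* passed on leaving out ArKI mouse 2 (-0.44), WT mouse 3 (-0.26) or WT mouse 5 (-0.44), and with all samples kept by DESeq2 (adjusted p = 0.013) and with the replicate block (edgeR adjusted p = 0.0054). *C1qb* passed on leaving out ArKI mouse 2 (-0.29, edgeR adjusted p = 0.017).

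None of the C1q genes was called in the caput. *C1qb* was at 21.1, 20.5, 30.6, 27.8 and 16.6 CPM in WT and at 26.9, 50.9, 27.2, 29.4 and 26.8 CPM in ArKI. ArKI mouse 2 alone was far above the WT range, and the log2 fold change was 0.42 ± 0.23 (edgeR adjusted p = 0.22). Without that sample it was 0.26, and those of *C1qa* and *C1qc* went from 0.21 each to 0.05 and 0.08. The log2 changes in the caput exceeded those in the IS by 0.59 ± 0.24 for *C1qa*, 0.59 ± 0.26 for *C1qb* and 0.57 ± 0.23 for *C1qc*. On leaving out 1 sample these differences fell to as low as 0.43, 0.43 and 0.44. By edgeR's quasi-likelihood test 0 of 8 genes passed for this difference of changes (15.1% of all genes did), although *C1qa*, *C1qb*, *C1qc* and *C3* had unadjusted p of 0.026, 0.034, 0.021 and 0.012. DESeq2 called 3 of 8, namely *C1qa*, *C1qc* and *C3*, where it called 1104 of 14329 genes more positive in the caput and 1192 less positive. These fits took the 20 samples as independent although the segments share animals. With sample numbers as a replicate block, which would pair the segments if equal numbers mark the same mouse, 4 of 8 were called, namely *C1qa*, *C1qb*, *C1qc* and *C3* (edgeR adjusted p = 0.0036, 0.0013, 0.00064 and 0.040). That block called 1099 of 14329 genes more positive in the caput and 1100 less positive.

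In the testis all 3 C1q genes were higher in each ArKI sample than in each WT sample, where groups did not overlap for 17.8% of all genes tested. *C1qb* was at 8.81, 11.7 and 10.2 CPM in WT and at 15.9, 14.2 and 12.9 CPM in ArKI. It rose by 0.49 ± 0.12 on the log2 scale (edgeR adjusted p = 0.029). The call was lost without WT mouse 1 (0.39), WT mouse 3 (0.49), ArKI mouse 1 (0.42) or ArKI mouse 2 (0.50), by DESeq2 (adjusted p = 0.057) and with the replicate block (edgeR adjusted p = 0.051). *C1qa* (0.44 ± 0.13, edgeR adjusted p = 0.11) and *C1qc* (0.28 ± 0.13, edgeR adjusted p = 0.36) were not called, but *C1qa* passed without WT mouse 2 (0.57, edgeR adjusted p = 0.028) and with no filter beyond 1 count (edgeR adjusted p = 0.043).

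**Figure D3:**
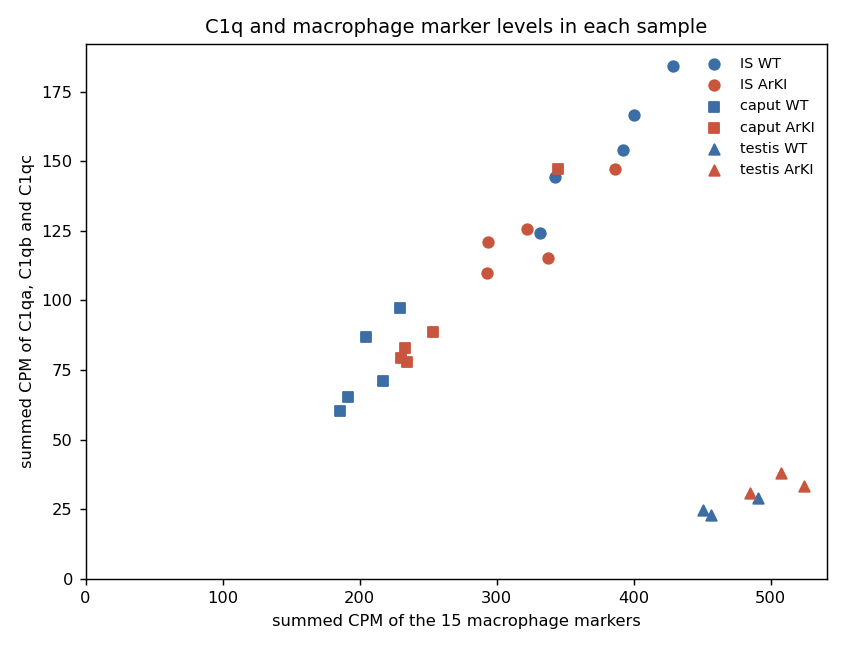
Summed CPM of *C1qa*, *C1qb* and *C1qc* (y axis) against the summed CPM of the 15 macrophage markers (x axis), 1 point a sample, with circles for the IS, squares for the caput and triangles for the testis, and WT in blue and ArKI in red. C1q was 32.4% to 42.9% of the marker sum in the epididymal samples but 5.05% to 7.51% in the testis, where *Aif1* alone gave 349 of 466.1 CPM in WT.

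The macrophage markers, none of which is a C1q gene, were read beside C1q. Their summed level was 332 to 429 CPM in the WT IS and 293 to 386 CPM in the ArKI IS, and 3 of 15 fell there, *Csf1r* (-0.54 on the log2 scale), *Cx3cr1* (-0.68) and *Emr1* (-0.52), with none rising, where 14.6% of all genes fell. In the caput the sum was 186 to 230 CPM in WT and 230 to 345 CPM in ArKI, highest in ArKI mouse 2, and of 15 markers *Lyz2* alone rose (0.78), where 13.7% of all genes rose. In the testis 14 markers were tested and *Lyz2* alone rose (0.53), where 1.64% of all genes did, the sum being 451 to 491 CPM in WT and 485 to 525 CPM in ArKI. Between WT segments 12 of 15 were higher in the IS (35.0% of all genes were), and *Cd14* and *Cd68* were higher in the caput. Of the endothelial markers 8 of 8 were higher in the WT IS (median log2 difference 1.14). The endothelial markers also moved in the IS, where 8 of 8 fell in ArKI, against 14.6% of all genes, and the sum went from 167 to 206 CPM in WT to 116 to 136 CPM. In the caput 2 of 8 rose (*Kdr* and *Pecam1*), against 13.7% of all genes. The caput sum was 75.7 to 83.3 CPM in WT and 86.3 to 116 CPM in ArKI. In the testis 0 of 8 were called. The part of either cell type in the C1q result was not tested.

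Other cell lists were read in the same way. Of 10 fibroblast markers, 8 rose and 1 (*Pdgfra*) fell in the ArKI IS, 3 rose in the caput and 2 of 9 tested rose in the testis, where 15%, 13.7% and 1.64% of all genes rose. Their sum was 1218 to 1359 CPM in the WT IS and 1376 to 1757 CPM in the ArKI IS, and in the caput it was 866 to 1001 CPM in WT and 1021 to 2472 CPM in ArKI. The largest fibroblast sum of an ArKI caput sample other than mouse 2 was 1416 CPM, while *C4b* was 70.5 to 84.8 CPM in those 4 samples. Of 12 T cell markers 4 passed the filter in the IS, where *Thy1*, which is also on the fibroblast list, rose, and none was called in the caput or testis. Their sum did not exceed 27.6 CPM in any sample. B and plasma cell markers were too low to be tested in the IS and caput, and of neutrophil markers 1 was tested in each. In the testis 3 and 2 of these were tested, and none of those tested was called between genotypes in its tissue. Their sums reached at most 11.5 and 5.57 CPM. Late spermatid and sperm RNA fell in ArKI in the IS (2 of 2 tested) and caput (7 of 7 tested), where 14.6% and 14.0% of all genes fell, from 216 to 338 CPM in the WT caput to 35.0 to 95.03 CPM, and in the testis 0 of 8 were called. The part of these cells in the *C3*, *C4b* and *C2* results was not tested.

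*Cfb*, the protease of the alternative pathway, was called in no tissue between genotypes. In the IS it was at 22.1, 22.2, 25.7, 26.3 and 25.7 CPM in WT and at 21.4, 23.3, 42.2, 28.0 and 33.8 CPM in ArKI. ArKI mice 3, 4 and 5 were above the WT range and mouse 1 was below it, and the log2 difference was 0.29 ± 0.17 (edgeR adjusted p = 0.24). On leaving out 1 sample this difference ranged from 0.13 to 0.39 and was not called. In the caput the difference was 0.41 ± 0.24 (edgeR adjusted p = 0.26) and 0.21 without ArKI mouse 2, which had 39.6 CPM. In the testis *Cfb* held 17 to 45 counts a sample. It was higher in the WT IS than in the WT caput by 0.55 ± 0.22 on the log2 scale (edgeR adjusted p = 0.035), with no overlap. That call was lost on leaving out IS WT mouse 3, 4 or 5 or caput WT mouse 1, 2, 4 or 5 (log2 differences from 0.50 to 0.64 over the 10 omissions, edgeR adjusted p up to 0.071), and with the replicate block (edgeR adjusted p = 0.058).

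*Cfd*, which cleaves factor B and is made in fat, was scarce. It had 1, 8, 14, 0 and 8 counts in the WT IS and 0, 0, 5, 1 and 0 counts in the ArKI IS, where 3 counts correspond to 0.313 to 0.512 CPM. The difference in mean log2(CPM + 0.5) was -0.74 (two-sided exact permutation test over samples, p = 0.13, adjusted over the 4 comparisons 0.27). The groups overlapped, and without WT mouse 4 the difference was -1.01 (exact permutation p = 0.048). The caput held 3, 10, 9, 0 and 97 counts in WT and 3, 0, 9, 20 and 13 counts in ArKI. The caput difference of -0.52 (exact permutation p = 0.64) turned to 0.19 without WT mouse 5 (exact permutation p = 0.75). That sample also held the most counts of 4 fat markers, chosen after their values were seen, with 124 of *Car3*, 95 of *Fabp4*, 25 of *Cidec* and 23 of *Adipoq*, where the other 9 caput samples held at most 18, 28, 5 and 5. Of the other listed fat markers it held the most of *Plin1* and *Retn*, but not of *Plin4*, *Lipe*, *Lep*, *Pparg*, *Slc36a2* or *Aqp7*. Its sum over all 12 adipocyte markers was 122.5 CPM against 66.9 to 88.4 CPM in the other WT caput samples and 117 to 133 CPM in 4 ArKI caput samples, and most of each sum was *Plin4*. Of the adipocyte markers 2 were tested in the IS, 4 in the caput and 7 in the testis. *Plin4* alone was called between genotypes, and it rose in each tissue, where 15%, 13.7% and 1.64% of all genes rose. The part of fat in the *Cfd* values was not tested. In the testis the 6 samples held 0 to 4 counts, and the exact permutation p was 0.1, the smallest that 3 against 3 allows.

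*Cd55*, the decay-accelerating factor, had the opposite distribution to C1q, at 33.2 ± 0.77 CPM in the WT testis (n = 3) against 4.02 ± 1.65 in the WT IS and 4.41 ± 1.04 in the WT caput (n = 5 each). In the IS it was at 3.50, 2.86, 3.60, 6.93 and 3.23 CPM in WT and at 6.33, 5.48, 7.56, 7.503 and 3.90 CPM in ArKI. WT mouse 4 was within the ArKI range and the other 4 WT mice were below it. The log2 difference of 0.62 ± 0.24 was not called (edgeR adjusted p = 0.061). It passed without WT mouse 4 (0.89, edgeR adjusted p = 0.0046) and without ArKI mouse 5 (0.76, edgeR adjusted p = 0.021), and with all samples kept by limma-voom (adjusted p = 0.045) and with the replicate block (edgeR adjusted p = 0.017). In the testis *Cd55* was at 32.3, 33.3 and 33.8 CPM in WT and 36.1, 40.6 and 40.1 CPM in ArKI, which did not overlap, with a log2 difference of 0.23 ± 0.08 (edgeR adjusted p = 0.16). In the caput the difference was 0.20 ± 0.22 (edgeR adjusted p = 0.55), and it ranged from 0.08 to 0.35 on leaving out 1 sample. Its paralog *Daf2* (*Cd55b*) was at 124 ± 3.99 CPM in the WT testis and below 1 CPM on average in the epididymis, and reads of shared sequence could have been lost or split between the copies.

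The rest of the complement system was read from 52 further genes, 50 of them in the tables. In the IS 24 passed the filter and 3 rose while 9 fell, in the caput 7 of 28 rose and 3 fell, and in the testis 4 of 35 rose and none fell. Their median log2 fold change was -0.10 in the IS, 0.08 in the caput and 0.16 in the testis. For all genes tested 15% rose and 14.6% fell in the IS, 13.7% and 14.0% in the caput and 1.64% and 0.328% in the testis.

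**Figure D4:**
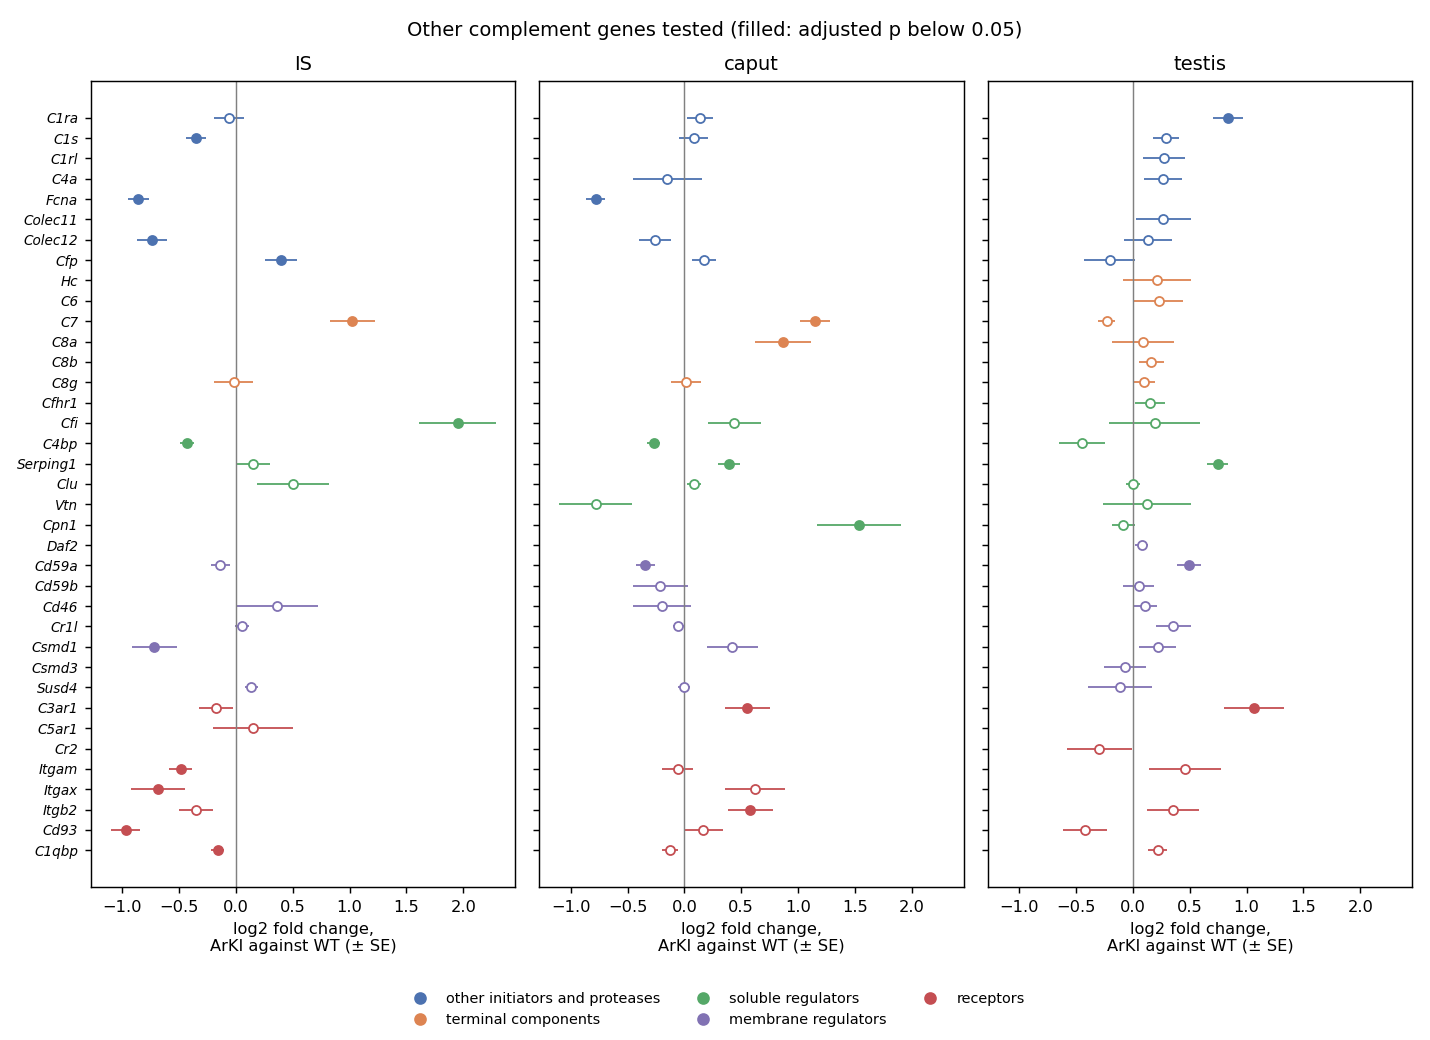
Log2 fold change (x axis, ± standard error) of ArKI against WT for the other complement genes that passed the filter in at least 1 tissue (y axis), coloured by role, with 1 soluble regulator not drawn. Filled symbols have an adjusted p below 0.05. In the IS 4 of the 7 receptors tested fell, and *C7* rose by 1.03 in the IS and 1.15 in the caput.

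Among initiators, the lectin-pathway gene *Fcna* fell in both segments, by 0.86 ± 0.09 on the log2 scale in the IS (edgeR adjusted p = 5.9e-07) and 0.78 ± 0.08 in the caput (edgeR adjusted p = 2.5e-06). It was at 40.7 ± 2.96 CPM in the WT IS and 22.6 ± 3.68 CPM in the ArKI IS. In the IS *C1s*, the protease of the C1 complex, fell by 0.35 and the scavenger collectin *Colec12* by 0.74, while *Cfp*, the properdin that stabilises the alternative pathway, rose by 0.40. The *Cfp* call was lost on leaving out ArKI mouse 1, 2 or 3 or WT mouse 1, 2 or 3 (edgeR adjusted p up to 0.12), and with all samples kept by DESeq2, with no filter beyond 1 count and with the replicate block. In the testis *C1ra*, the other protease of C1, rose by 0.84 ± 0.13 (edgeR adjusted p = 0.00049), from 4.77 ± 0.13 to 8.54 ± 0.49 CPM.

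Among terminal components, which form the membrane attack complex, *C7* rose in both segments. It was at 80.9 ± 13.4 CPM in the WT IS and 164 ± 40.0 CPM in the ArKI IS (log2 fold change 1.03 ± 0.20, edgeR adjusted p = 0.0045). In the caput it went from 84.6 ± 15.8 to 188 ± 19.5 CPM (1.15 ± 0.13, edgeR adjusted p = 0.00011). *C7* was not called in the testis, where the log2 difference was -0.23 ± 0.07 (edgeR adjusted p = 0.13). *C8a* also rose in the caput (0.87 ± 0.25), from 0.99 ± 0.26 to 1.81 ± 0.22 CPM. *C8b* was at 13.4 ± 1.45 CPM in the WT testis and had 0 counts in all 20 epididymal samples, which allows up to 0.247 to 0.691 CPM a sample (3 counts, counting error only).

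Among soluble regulators, *Cfi*, the protease that inactivates cleaved C3 and C4, rose in the IS from 4.55 ± 1.24 to 17.9 ± 7.78 CPM (1.95 ± 0.34, edgeR adjusted p = 0.0019). Its caput change was smaller than its IS change, with a difference of -1.51 ± 0.43 on the log2 scale (edgeR adjusted p = 0.023), a call that was lost with the replicate block (edgeR adjusted p = 0.067). *Serping1*, the C1 inhibitor, rose in the caput by 0.39 ± 0.10 and in the testis by 0.75 ± 0.09 (edgeR adjusted p = 0.0099 and 3.3e-05). *C4bp*, which binds *C4b*, fell by 0.43 ± 0.06 in the IS and by 0.27 ± 0.06 in the caput. Its WT level was 1057 ± 64.4 CPM in the IS and 3244 ± 221 CPM in the caput. *Cpn1*, a carboxypeptidase that trims the released peptides, rose in the caput (1.53 ± 0.37). *Clu*, the abundant epididymal clusterin, was called in no tissue between genotypes but was far lower in the WT IS than in the WT caput (log2 difference -4.75 ± 0.27).

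Among membrane regulators, *Cd59a*, which blocks the membrane attack complex, fell in the caput by 0.34 ± 0.08 and rose in the testis by 0.49 ± 0.10 (edgeR adjusted p = 0.0047 and 0.0099), the testis call being lost without WT mouse 3 or ArKI mouse 2. *Csmd1* fell in the IS by 0.72 ± 0.20. *Daf2*, *Cd59b* and *Cd46*, membrane inhibitors with testis-rich levels here (124, 10.1 and 16.1 CPM in WT), were not called in the testis. Among receptors, *Cd93* fell by 0.97 ± 0.13, *Itgam* by 0.49 ± 0.10, *Itgax* by 0.69 ± 0.24 and *C1qbp* by 0.16 ± 0.06 in the IS. Of these, *Itgax* was no longer called without ArKI mouse 2, 4 or 5 or WT mouse 1, 3 or 4 (edgeR adjusted p up to 0.095), and *C1qbp* without ArKI mouse 1 or 5 or WT mouse 1 or 2 (edgeR adjusted p up to 0.0996). With all samples kept, *Itgax* was not called by DESeq2 or limma-voom, nor *C1qbp* by DESeq2, with library size only or with all 20 epididymal samples in a joint fit. The receptor of the C3a peptide, *C3ar1*, rose in the caput by 0.55 ± 0.20 and in the testis by 1.07 ± 0.27 (edgeR adjusted p = 0.045 and 0.038), and *Itgb2* rose in the caput by 0.58 ± 0.20. The testis call of *C3ar1* was lost on leaving out any of the 6 samples (edgeR adjusted p from 0.055 to 0.19), by DESeq2 (adjusted p = 0.22) and with the replicate block, and its caput call on leaving out any of the 10 other than WT mouse 4 or ArKI mouse 1 or 3 (up to 0.11). The *Itgb2* call was lost without WT mouse 1, 2, 3 or 5 or ArKI mouse 4 or 5 (up to 0.14) and by limma-voom. Between WT segments 6 of 7 receptors tested were higher in the IS (35.0% of all genes tested were) and *C1qbp* was higher in the caput (34.4% were). Of the 6, *C5ar1* was no longer called without IS WT mouse 3 or 4 or caput WT mouse 1 or 2 (edgeR adjusted p up to 0.061).

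Beyond C1q, the genes most similar to the members across the 20 epididymal samples were *Cadm3* for *C4b* (r = 0.987), *Cdk5r2* for *C3* (r = 0.911), *Ppic* for *Cfb* (r = 0.904), *Gart* for *C2* (r = 0.810) and *Rhoj* for *Cd55* (r = 0.705). With the group means removed, *F13a1*, a gene of macrophages and platelets, was most similar to *C4b* (r = 0.793). The other genes then were *1700007K09Rik* for *C3* (r = 0.784), *Palm* for *Cfb* (r = 0.894), *Aebp1* for *C2* (r = 0.860) and *Kif15* for *Cd55* (r = 0.819). None of these was another complement gene.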

How the data were processed

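RNA-seq of 26 samples was analysed: 10 from the IS, 10 from the caput and 6 from the testis, with equal numbers of ArKI and WT mice. The authors mapped the reads to mm10 and deposited raw read counts of uniquely mapped reads per RefSeq gene, 1 table for the epididymis and 1 for the testis, neither normalized nor filtered. The submitters' processing notes name Subread 1.5.1 and bcl2fastq 1.8.4. The library kit is given differently in the labels and in the methods of the study, so it is not settled whether counting used strand. ChIP-seq data were not analysed here.

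ArKI was compared with WT within each tissue using edgeR 4.0.16 in R 4.3.3, using filterByExpr (minimum count 10, minimum total 15), TMM scaling, robust quasi-likelihood fits and Benjamini-Hochberg adjustment over all genes tested, with calls at an adjusted p below 0.05. WT segments and the difference of genotype changes between segments were contrasts of a fit of the 20 epididymal samples. The study used ROTS on voom values with an FDR of 0.01 (0.2 in the testis) and a fold above 2. ROTS was not run here, and those thresholds were an alternative beside DESeq2 1.42.0, limma 3.58.1 (voom), RLE factors, library size only, other filters, a block for the replicate number, a joint fit of the epididymal samples and leaving out each replicate. Summing C4a with C4b and using only the 10 WT samples were chosen after seeing the data, as were the motifs. Cfd was under the filter and was compared by exact permutation tests on log2(CPM + 0.5) over 252 assignments for 5 against 5. Exon lengths came from GENCODE for 20959 of 23337 genes. A library of 5829074 counts puts 3 counts at 0.512 CPM, and p-values measure the spread between these samples. The scripts were tested on simulated data.

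IS and caput came from the same mice by the methods of the study, but no source ties sample numbers to mice across segments. Correlations of deviations between IS and caput did not exceed 0.1 for every equal number. The numbers were therefore not used to pair samples in the reported fits. For WT numbers 3, 4 and 5 they were 0.2, 0.12 and 0.167, above those with any other caput number (at most 0.0115, 0.0217 and -0.00418). The same held for ArKI numbers 4 and 5 (0.0577 and 0.202 against 0.01 and 0.0335). It did not hold for WT numbers 1 and 2 or ArKI numbers 1, 2 and 3. The pairing is thus not settled. The 9 genes and all lists (complement roles and markers of macrophages, T cells, B and plasma cells, neutrophils, adipocytes, fibroblasts, endothelium, late spermatids and sperm, and the tissues) were chosen with earlier results of these data known. Named in the text are the 9 genes, listed complement genes called in a comparison, listed markers, and for each gene the most similar of 14030 genes by Pearson correlation. A listed soluble regulator, the targeted gene and motifs of its product are not reported here, although counts over lists include that regulator. Cfhr3, Csmd2, Mzb1 and Ly6g have no row, and older symbols were used for Cd55b, C5ar2, Adgre1 and Jchain.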

Additional observations from a re-analysis of the deposited data

Results flagged for a closer look

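In 36 groups of 5 samples (9 genes in 4 epididymal groups) 7 values, from 5 samples, stood apart from the rest of their group, where chance gives about 1 in 20 groups, or 1.8. In the caput sample of ArKI mouse 2, C1qa was at 53.2 CPM, C1qb at 50.9 CPM and C1qc at 43.3 CPM, and these flags share 1 library. Cfb was at 21.0 CPM in the caput of WT mouse 3. Cfd was at 0.713 CPM in the IS of ArKI mouse 3, which is 5 counts, and at 11.3 CPM in the caput of WT mouse 5. Cd55 was at 6.93 CPM in the IS of WT mouse 4.

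The change between genotypes differed between caput and IS for 7 of 29 other complement genes tested, of which 6 are described, where 15.1% of all genes tested were called (edgeR interaction term, caput minus IS, on the log2 scale). It was more positive in the caput for Itgax (1.30, adjusted p = 0.014), Csmd1 (1.14, adjusted p = 0.012), Cd93 (1.12, adjusted p = 0.00082), Itgb2 (0.93, adjusted p = 0.010) and C3ar1 (0.73, adjusted p = 0.048). The C3ar1 call was lost on 14 of the 20 omissions of 1 sample, all but those of IS ArKI mouse 2 or 3, IS WT mouse 1, caput WT mouse 4 and caput ArKI mouse 1 or 3 (adjusted p up to 0.10), and with all samples kept it was lost with library size only and with no filter beyond 1 count. It was more positive in the IS for Cfi (-1.51, adjusted p = 0.023), a call lost with the replicate block (adjusted p = 0.067). The endothelial markers behaved likewise, with 6 of 8 more positive in the caput, and so did 4 of 15 macrophage markers. Their part in these differences was not tested.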

How the results depend on the processing

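Of 1915 values of 91 gene results under the alternatives, 1726 kept their direction and their side of the threshold, 155 lost and 22 gained a call, and 12 reversed. C4b and C3 in the caput, C4b in the IS and C3 in the testis were called under every alternative run. At the thresholds of the study, 1 of the 4 complement genes called in the IS was left, 1 of 2 in the testis and 2 of 4 between WT segments. Of the further genes, 2 of 12 were left in the IS, 2 of 10 in the caput and 1 of 4 in the testis. DESeq2 called 1 of the 8 in the testis, where it called 210 genes up and 56 down of 15838. It called 3 for the difference of changes. With the replicate block 1 was called in the testis, where it called 255 genes up and 50 down of 15838. The block called 4 for the difference of changes. Within a tissue it pairs a WT with an ArKI mouse of equal number, which are different mice (correlations of deviations from -0.188 to 0.205). Between IS and caput equal numbers are not stated to mark the same mouse (correlations from -0.1 to 0.202). Leaving out 1 sample gave 2 to 5 called complement genes in the IS (2 without ArKI mouse 1, WT mouse 1 or WT mouse 2), 1 to 3 in the testis (1 without WT mouse 1 or 3 or ArKI mouse 1 or 2) and 0 to 1 for the difference of changes (1 without IS ArKI mouse 2 or caput WT mouse 5). It gave 2 to 4 further genes in the testis (2 without WT mouse 3 or ArKI mouse 2). The causes were not tested, beyond the fewer samples of the omissions.

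Some values that were not called, all on the log2 scale, changed sign on leaving out 1 sample. C2 ranged from -0.057 to 0.237 in the testis and Cfb from -0.366 to 0.161. C3 ranged from -0.040 to 0.128 between WT segments. The difference of changes ranged from -0.072 to 0.146 for C2 and from -0.094 to 0.275 for Cfb. Cfd kept its sign in the IS, ranging from -1.01 (without WT mouse 4) to -0.466, ranged over -0.949 to 0.192 in the caput, and between WT segments over -1.06 to 0.0792, both highest without caput WT mouse 5. Cfd was under the low-count filter.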
